A study of Mus musculus with 13 samples.

Results

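Candidate C/EBPα regions at 9 leukocyte adhesion and homing genes (Itgal, Itgam, Itgb2, Itgb7, Itga4, Selplg, Fut7, Cxcr4 and Cd44) were described in LSK cells, the bone marrow fraction without lineage markers that carries Sca-1 and Kit and holds hematopoietic stem and early progenitor cells. A region was counted to a gene when its centre lay within 100 kb of the gene's transcription start site (TSS) or inside the gene. The TSS is that of the transcript with the longest span, called the main TSS where other annotated starts are given too. The members were thus chosen by a measured value, the position of the called regions, and 20 of 17899 regions fell under the rule. The study used ChIP-seq, which sequences the DNA that an antibody pulls down from crosslinked chromatin, to ask where C/EBPα binds in stem and progenitor cells. Of its 13 samples, 1 C/EBPα library from LSK cells was analysed and 12 were not analysed here, among them a further C/EBPα LSK library and the IgG mock. The mice of the analysed library were labelled as C57BL/6 with floxed cebpa alleles and Mx1Cre, and the labels give neither an age nor a genotype nor a treatment for it. Mx1Cre is a Cre driven by the interferon-inducible Mx1 promoter, so whether the floxed alleles had been recombined in these cells cannot be told from the labels. The list holds regions and scores and no expression values, so the LSK label could not be checked against marker genes, and with 1 library no value has a replicate check.

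Leukocytes leave the blood, and stem cells find the bone marrow, in steps. Selectins on vessel walls catch glycoprotein ligands that carry fucosylated sugars, chemokine receptors then switch integrins to a binding state, and the integrins hold the cell to ligands on the endothelium. C/EBPα is a transcription factor of myeloid differentiation that binds DNA as a dimer, and its preferred site is palindromic.

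The sequences below are shown because they hold the C/EBP word nearest to the centre in those regions of the listed genes that are described in detail and hold such a word. A C/EBP word was TTGCNNAA or TTACNNAA on either strand. All sequences are the plus strand of the mouse assembly NCBIM37 (mm9), 5′ to 3′, with C/EBP words in capitals, which may read as the reverse complement.
Fut7, region at the start site, chr2:25278678-25278737: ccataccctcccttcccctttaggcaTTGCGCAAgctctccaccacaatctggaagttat
Fut7, far upstream region at Man1b1, chr2:25188198-25188257: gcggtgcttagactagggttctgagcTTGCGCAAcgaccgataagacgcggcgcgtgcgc
Itgb7, upstream region in Rarg, chr15:102074012-102074071: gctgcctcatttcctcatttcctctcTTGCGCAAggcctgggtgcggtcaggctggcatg
Itgb7, downstream region near Zfp740, chr15:102033735-102033794: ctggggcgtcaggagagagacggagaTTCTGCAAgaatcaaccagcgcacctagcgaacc
Itgal, upstream region near Sephs2, chr7:134417675-134417734: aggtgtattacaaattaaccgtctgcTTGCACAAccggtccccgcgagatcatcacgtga
Itgam, upstream region in Trim72, chr7:135152197-135152256: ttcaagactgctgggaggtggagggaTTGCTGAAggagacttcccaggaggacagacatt
Cxcr4, downstream region toward Dars, chr1:130396479-130396538: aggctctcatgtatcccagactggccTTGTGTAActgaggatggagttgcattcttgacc

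The highest values were found in regions counted to Fut7 and Itgb7. The score comes from the authors' MACS run against the IgG mock and is -log10 of the region's p-value multiplied by 10. The list starts at a score of 50, a p-value of 1e-05. The 3 highest regions of the listed genes, 2 counted to Fut7 and 1 to Itgb7, held ranks 9, 10 and 11 of the whole list. Each contained the palindrome TTGCGCAA. Of the 2 counted to Fut7, 1 lay 129 bp from the TSS of another gene, Man1b1. The region counted to Itgb7 lay in an intron of Rarg, of which an annotated start was nearer than the Itgb7 TSS. No region was found for Itga4, and those of Itgam, Itgb2, Selplg, Cxcr4 and Cd44 all scored under 100.

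**Figure D1:**
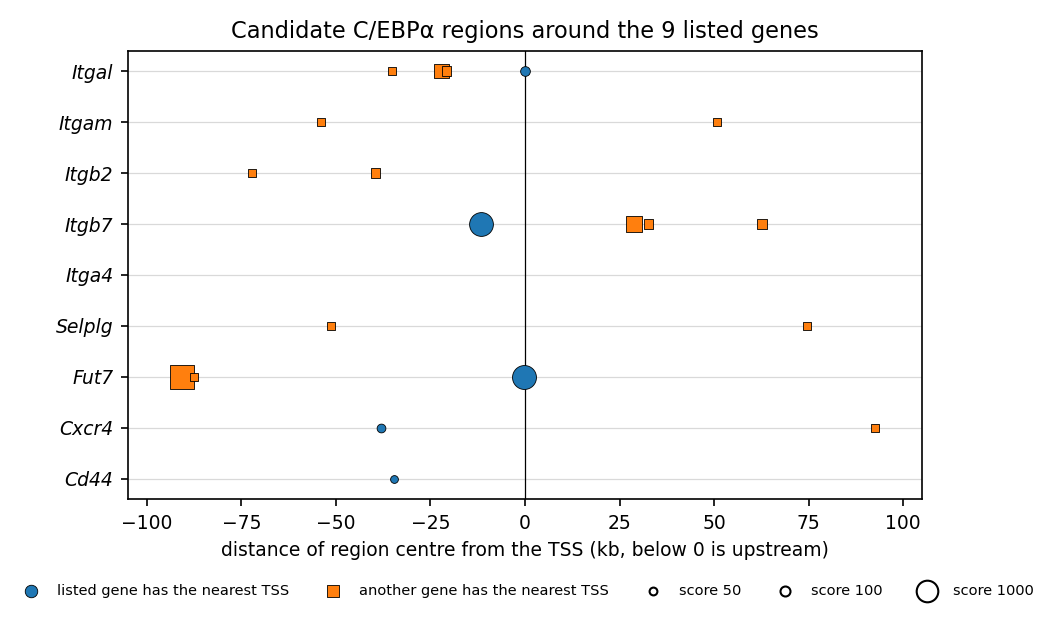
Distance of each region's centre from the TSS of its listed gene (x axis, kb, with values below 0 upstream) for the 9 genes (rows). Marker area grows with the score, circles mark the 5 regions for which the listed gene has the nearest TSS and squares the other 15; Fut7 and Itgal have a region at the TSS, and Itga4 has none in the window.

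At least 1 region was counted to 8 of the 9 listed genes, and 80.3% of 22359 protein-coding genes had a region under the same rule. The median was 2 regions for the listed genes and 2 for all genes. A gene of the list had at most 4 regions, which was the case for Itgal and Itgb7. A score of at least 100, a p-value of 1e-10, was reached by 5 of the 20 regions, and by 20.3% of all candidate regions. A score of at least 200 was also reached by 5 of the 20, and by 2.06% of all. A score of at least 1000 was reached by 3 of the 20, and by 0.145% of all, which is 26 regions. The median score was 80.5 for the 20 regions and 73.8 for the whole list, so apart from the few at the top the listed genes' regions lay in the bulk of the list. Their median width was 623 bp (384 to 1016 bp), against 587 bp for all. Score and width had a Spearman correlation of 0.54 across the 20 regions and of 0.07 across all 17899, given as a description of regions that share 1 library. In no region of the 20 did over 50% of the 32-mers occur at more than 1 position of the genome, as they did in 9.65% of all regions.

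**Figure D2:**
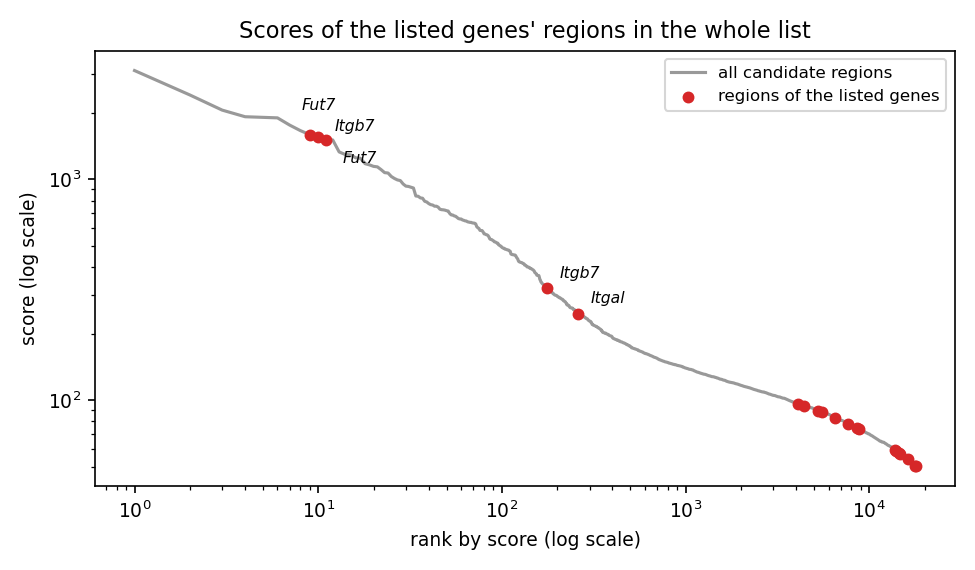
Score (y axis, log scale) against rank by score (x axis, log scale) for all 17899 candidate regions of the C/EBPα library (line) and for the 20 regions of the listed genes (points, with the genes of the 5 highest named). The points form a group at ranks 9, 10 and 11, a pair at ranks 177 and 260, and 15 regions under a score of 100.

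Fut7 encodes the fucosyltransferase that adds the fucose needed for selectin binding to the glycans of leukocytes. Its highest region, chr2:25278320-25279280, scored 1591.43 over a width of 961 bp, and its centre lay 273 bp upstream of the TSS of the transcript with the longest span and 13 bp from the start of another annotated transcript. The region covered all 3 annotated starts of Fut7. The palindrome in it lay 92 bp from the centre and began 369 bp upstream of the main TSS. A region of score 1000 or more within 1 kb of the TSS was found for 15 of 22359 genes (0.0671%). The next gene from this region was Abca2, a lipid transporter, with its TSS at 5423 bp, so Fut7 was the nearest gene.

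The other high region counted to Fut7 has a different neighbour. It lay at chr2:25188021-25188735, scored 1510.33 and had its centre 90695 bp upstream of the TSS, with 16 other protein-coding genes having a closer TSS. The nearest was Man1b1, a mannosidase of protein quality control in the endoplasmic reticulum, at 129 bp, and the centre fell in the 5′ UTR in exon 1 of that gene. The region's palindrome lay 150 bp from the centre, and an ETS word, GCTTCCT, lay 45 bp from the centre. By position this region may belong to Man1b1 and not to Fut7. More than 1 region of score 1000 or more within 100 kb was found for 8 of all genes, of which Fut7 is 1. All 8 lie around this region and the one at the Fut7 start site, the only pair of that score close enough to share a gene. The count thus describes 1 locus.

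Selplg encodes PSGL-1, the main ligand of the selectins on leukocytes and a carrier of the sugars that Fut7 makes. Its highest region, chr5:114331620-114332120, scored 59.56 and lay 51360 bp upstream, in intron 2 of Coro1c, a gene of the actin-binding coronins whose main TSS was closer at 26897 bp and which has another annotated start at 570 bp. It held no C/EBP word.

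Among the integrin genes, Itgb7 held the highest region. Itgb7 encodes the β7 chain, which pairs with the α4 chain to bind MAdCAM-1 in homing to the gut. The region at chr15:102073509-102074384 scored 1547.16 with a width of 876 bp and lay 11581 bp upstream of the Itgb7 TSS. Its centre fell in intron 3 of Rarg, a retinoic acid receptor gene, whose main TSS was farther away at 14001 bp but which has another annotated start at 2984 bp, so both genes are candidates. The palindrome lay 94 bp from the centre, and a further C/EBP word, TTCTGCAA, 304 bp from the centre. A RUNX word, TGCGGTC, lay 110 bp from the centre, within the printed stretch.

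A second high region of Itgb7, chr15:102033219-102033804, scored 321.81 (rank 177) and lay 28854 bp downstream of the TSS. Zfp740, a zinc finger gene, had its TSS 567 bp from the centre and is the nearer candidate. The region's only C/EBP word, TTCTGCAA, lay 252 bp from the centre. An ETS word, AGGAAGC, lay 23 bp and a RUNX word, TGTGGTT, 67 bp from the centre.

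Itga4, the α4 chain that pairs with β7 or with β1 and holds stem cells to VCAM-1 in the marrow, had 0 regions, as had 19.7% of all protein-coding genes. The closest region was 148487 bp from its TSS and scored 66.61.

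Of the genes of the leukocyte β2 integrins, Itgal had a region at its start site, and the regions of Itgam and Itgb2 scored under 100. Itgal encodes the αL chain of LFA-1, which binds ICAM proteins. A region at chr7:134439490-134440208 covered its TSS, with the centre 75 bp downstream in the 5′ UTR in exon 1 and a score of 93.95 (rank 4418). No C/EBP word was found in it, and an ETS word, ACTTCCT, began 16 bp upstream of the TSS. The highest region of Itgal, chr7:134417241-134418256, scored 246.29 (rank 260) and lay 22025 bp upstream. Its centre was 316 bp from the TSS of Sephs2, a gene of selenium metabolism, which is the nearer candidate. This region, the widest of the 20 at 1016 bp, held 6 C/EBP words, a number reached by 2 of 17899 regions, and the word nearest to the centre lay 44 bp from it.

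Itgam encodes the αM chain of Mac-1, a marker of myeloid cells. Its higher region, chr7:135151938-135152593, scored 75.07 and lay 53931 bp upstream in intron 5 of Trim72, a gene of membrane repair in muscle. Trim72 had the nearest TSS, at 4763 bp, and is the nearer candidate. This region held the C/EBP word TTGCTGAA 40 bp from its centre. The other, chr7:135256676-135257225, scored 54.23 and lay within Itgam, in intron 21, 50754 bp from the TSS. By main TSS the nearest gene there was Itgax, the αX chain gene, at 16110 bp, with Itgad at 40939 bp, but a start of another annotated Itgam transcript lay closer, at 2999 bp. Itgb2 encodes the β chain common to these integrins. Its highest region, chr10:76953079-76953745, scored 88.26 and lay 39585 bp upstream, with no C/EBP word. The centre fell in intron 4 of 1810008A18Rik, which had the nearest TSS, at 25146 bp. No region lay within 10 kb of the main TSS of Itgam or Itgb2. Their closest regions were at 50754 bp and 39585 bp, and the median for all protein-coding genes was 39295 bp.

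Cxcr4 encodes the receptor for CXCL12, which retains stem cells in the marrow. Its regions scored 77.8 at chr1:130396016-130396652, 92533 bp downstream, where Dars, an aspartyl-tRNA synthetase gene, was nearer at 82341 bp, and 74.27 at chr1:130526673-130527268, 38104 bp upstream, where Cxcr4 itself was nearest. The first held the C/EBP word TTGTGTAA 174 bp from its centre and the other held none. In the other, 43.5% of the 32-mers occurred elsewhere in the genome, the highest share of the 20. Cd44, the hyaluronan receptor, which can also carry selectin-binding sugars, had 1 region, chr2:102776046-102776654, with a score of 50.53, close to the start of the list, 34528 bp upstream. It held no C/EBP word, and an AP-1 word, TGAGTCA, lay 12 bp from its centre. The 7 regions not described here scored between 50.13 and 96.47.

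A region centred within 1 kb of the TSS was found for 2 of the 9 listed genes, Itgal and Fut7, and for 3.03% of all protein-coding genes. The listed gene had the nearest TSS for 5 of the 20 regions (25.0%), and over all pairs of a region and a gene formed by the same rule the share was 31.6%. The 5 were the start-site regions of Itgal and Fut7, the region of score 1547.16 at Itgb7 and those upstream of Cxcr4 and Cd44. With every annotated start counted the number was also 5, with the region in Itgam in place of that at Itgb7, for which Rarg was then nearest. In 4 cases another gene's TSS lay within 1 kb of the centre, among them Sephs2, Zfp740 and Man1b1. By position of the centre in the longest transcripts, 11 regions were intergenic, 7 intronic and 2 in a 5′ UTR. Neither these places nor the 4 cases are set beside shares over all candidate regions here, so they only describe the 20. Of the 20, 9 lay over 50 kb from the TSS (45%), and of all pairs of a region and a gene within 100 kb of each other 50.1% did. At the edge of the window, the farthest regions inside were those of Cxcr4 at 92533 bp and Fut7 at 90695 bp, and the nearest outside was a region of score 123.99 at 100166 bp from Itgal, 94 bp from the TSS of Cd2bp2.

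Of the 20 regions, 3 held a C/EBP word within 70 bp of their centre (15%, exact binomial 95% interval 3.21 to 37.9%), and in 10.6% of all candidate regions. In windows of the same size 1000 bp to both sides of all regions the share was 12%, so over the whole list the words were not more frequent at the centres than beside them. Anywhere in the region, 10 of the 20 held such a word (50%, 27.2 to 72.8%), and 36.3% of all. Intervals cover counting error only. In the whole list the share within 70 bp was higher at higher scores, from 9.22% at scores of 50 to 100 and 12.4% at 100 to 200 to 44.3% at 200 to 500, 53.5% at 500 to 1000 and 50% at 1000 or more. The regions of Fut7 and Itgb7 with scores over 1000 held their palindrome outside the 70 bp window, at 92, 94 and 150 bp. The list gives no peak summits, so the centre of a wide region need not be the place with most reads.

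**Figure D3:**
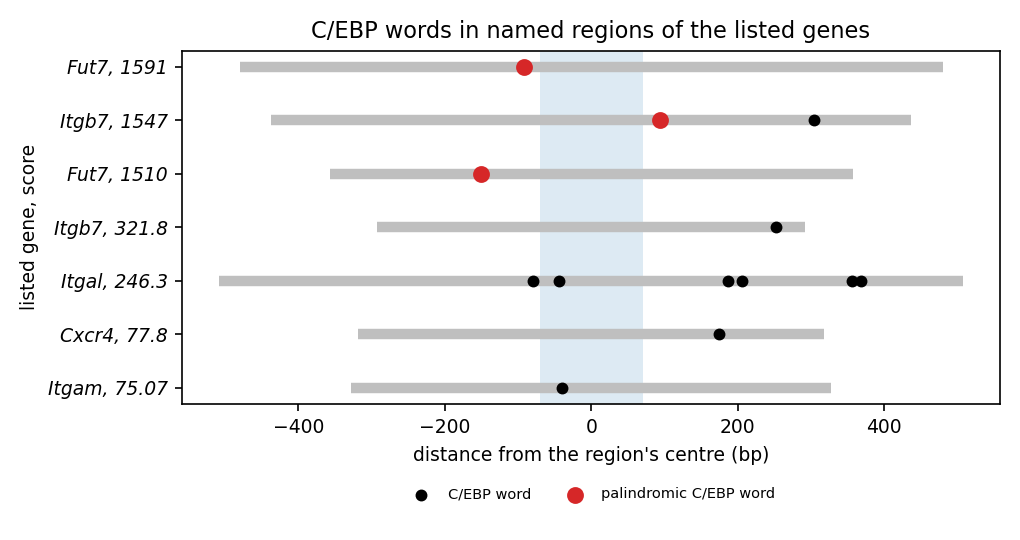
Positions of C/EBP words (black points) and of the palindromic word (red points) relative to the centre (x axis, bp) in the 7 described regions of the listed genes that hold one (grey bars, the extent of the region), named by gene and score. The blue band marks 70 bp to both sides of the centre, and the palindromes of the 3 highest regions lie at 92, 94 and 150 bp, outside it.

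The palindrome TTGCGCAA was counted after it had been seen in these regions. It occurred in 3 of the 20 regions, the 3 highest, and in 182 of 17899 regions, 1.02%. In equally wide windows beside the regions it occurred in 26 of 35798 (0.0726%). Of the 26 regions with a score of at least 1000, 16 held it (61.5%, 40.6 to 79.8%), and these 16 include the 3 counted to Fut7 and Itgb7. At scores of 500 to 1000 the share was 32.4%, at 200 to 500 it was 16.2%, and at 50 to 100 it was 0.406%. The regions of Itgb7 and Itgal with scores of 321.81 and 246.29 did not hold it, nor did the 15 below 100. The presence of the word describes the sequence and does not show that the factor sits on it.

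**Figure D4:**
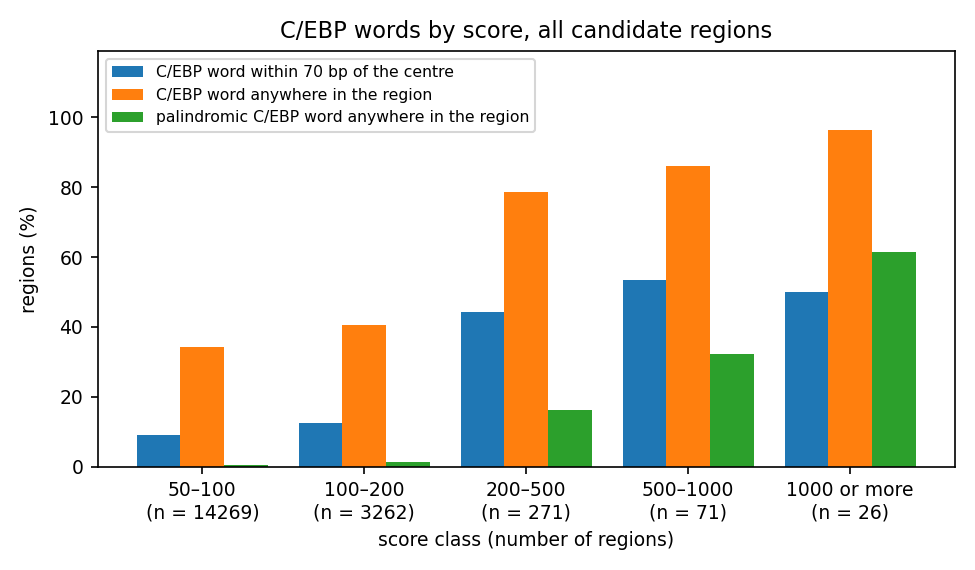
Share of all candidate regions (y axis, %) in 5 classes of score (x axis, with the number of regions) that held a C/EBP word within 70 bp of the centre, such a word anywhere in the region, or the palindromic word. The share with the palindrome goes from 0.406% in the lowest class to 61.5% of the 26 regions in the highest.

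Words of other factors were counted in the same way, on both strands and up to 70 bp from the centre. An ETS word (AGGAAG or CGGAAG, followed by C or T) was present in this window in 3 of the 20 regions and in 10.1% of all. A RUNX word (TGTGGT or TGCGGT, followed by T or C) was found in 2 of the 20 and in 6.77% of all, and a GATA word (AGATAA or TGATAA) in 3 and in 8.65%. An AP-1 word (TGANTCA) was found in 1 and in 3.93%, and the SP1 word (CCCGCCC) in 0 and in 1.58%. Anywhere in the region, an ETS word was present in 10 of the 20 (50%) and in 33.9% of all. A RUNX word was found in 7 (35%) and in 24.6%, and a GATA word in 9 (45%) and in 37.5%. An AP-1 word was found in 3 (15%) and in 16.5%, and the SP1 word in 4 (20%) and in 5.94%. The 3 highest regions were among the 4 with the SP1 word. In the stretch from 250 bases before to 50 after the TSS, an ETS word was present for 7 of the 9 listed genes, all but Itga4 and Cxcr4, and for 28.5% of 22359 genes. Itga4 and Cxcr4 were instead the genes of the list with the SP1 word there, which 33% of all genes held. No listed gene had a C/EBP word in this stretch of its main TSS, which 17.2% of all genes had. With every annotated start counted, 1 of the 9 had it, against 24.8% of all genes: the palindrome of Fut7 begins 83 bp upstream of the other start near the region's centre.

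The other genes of adhesion and homing were taken from a list of 51. Of these, 43 had a candidate region within 100 kb, 84.3% against 79.2% of all protein-coding genes, and 18 had one with a score of at least 100, a share of 35.3% against 27.7% of all protein-coding genes. A region of score 200 or more was within 100 kb of 6 of them (11.8%, against 5.38% of all genes).

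Selp and Sele, the genes of the P-selectin and E-selectin, lie close to each other. A region within 100 kb of both, chr1:166065266-166066071, scored 298.88 and fell in intron 8 of Selp, which is expressed by platelets and endothelium. Its nearest TSS was that of F5, coagulation factor V, at 16300 bp, and it held no C/EBP word.

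Of the genes of integrin activation and migration, Rasgrp2, an exchange factor that activates Rap1 ahead of the integrins, had a region of score 383.77 at chr19:6364124-6364808. It lay 34874 bp upstream, in intron 1 of the splicing factor gene Sf1 and 776 bp from the TSS of Sf1, which is the nearer candidate. Dock2, an activator of Rac in leukocyte migration, had a region of score 287.76 at chr11:34596500-34596893, in its own intron 1 and 697 bp from its TSS. Neither region held a C/EBP word.

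Among the chemokine receptors, Ccr9, the receptor for gut homing that acts together with the α4β7 integrin, had the highest region of the 51 genes, chr9:123626389-123627281, with a score of 513.68 (rank 94). It fell in intron 1 of the longest Ccr9 transcript, 39278 bp from the TSS, but 92 bp from the TSS of Lztfl1, and held 2 C/EBP words, with at least 1 within 70 bp of the centre. Fut4, a fucosyltransferase related to Fut7, had a region of score 120.59 at chr9:14562959-14563525, 6676 bp upstream in intron 3 of 1700012B09Rik, with no C/EBP word. Fut4 and Dock2 were the genes of the list with a region of score 100 or more within 10 kb of the TSS, 3.92% against 3.62% of all genes. Itgb1, the other partner of the α4 chain, and Cxcl12, the ligand of Cxcr4, were looked up after their values had been seen. Neither had a region in the window, and the closest lay 126426 bp and 102417 bp away.

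**Figure D5:**
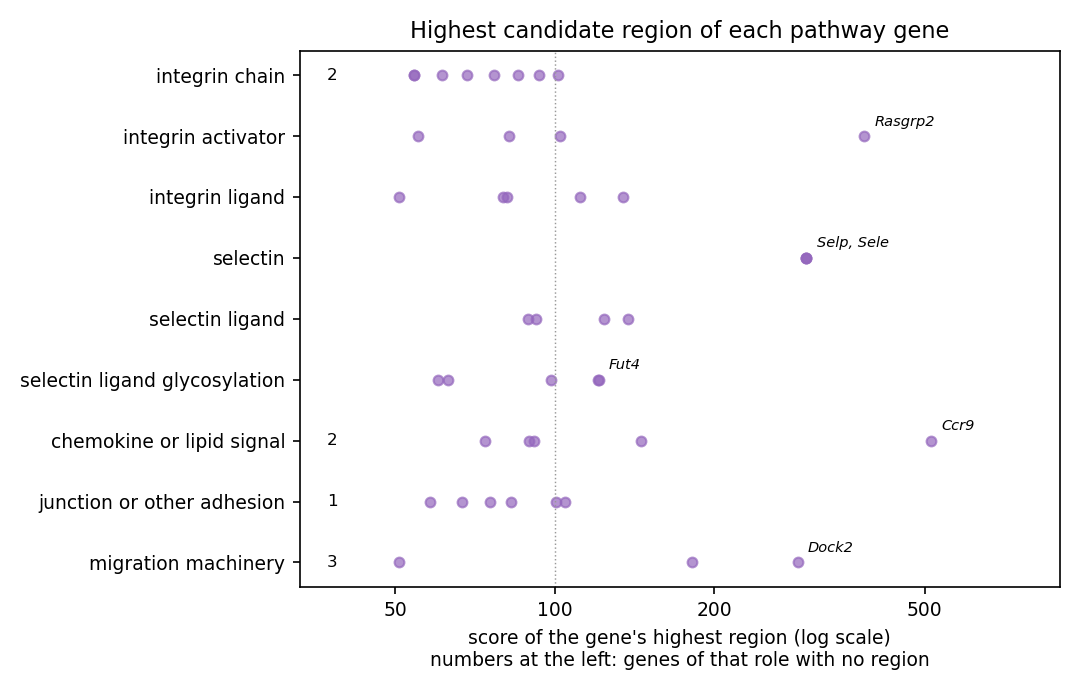
Score of the highest region of each of the 51 other adhesion and homing genes (x axis, log scale) by role (rows), with 1 point per gene and the genes described in the text labelled. Numbers at the left count genes with no region, and the dotted line marks a score of 100, past which 18 genes lie.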

How the data were processed

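C/EBPα ChIP-seq of LSK cells was read from 1 deposited list of regions. The authors mapped reads to mm9 and called regions against an IgG mock; the submitters' processing notes name Bowtie 0.12.8, bedtools 2.16.2 and MACS 1.4.2, while the study's methods give an earlier bowtie release. The score deposited by the authors is the -log10 of the MACS p-value multiplied by 10. The regions are candidates: the study later removed regions by peak height, absence from 1 of its samples, IgG reads, clustering and manual inspection, and which of these regions passed is not used here. The sources do not say whether the call pooled reads of both LSK libraries. The list holds no read numbers, and the depth of the library was not used here, so no precision from it is given.

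Here, region centres were set against the GENCODE annotation (release M1) of NCBIM37, using for each of 22359 protein-coding genes the protein-coding transcript with the longest span. Coordinates count from 1. Words were counted on both strands, and exact binomial (Clopper-Pearson) intervals were taken at 95%. No test was run, since there is 1 library. The word and assignment steps were tested on simulated data.

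The genes named were all 9 listed genes, each with its highest region, the region nearest its TSS and every region with a score of at least 100, their nearest and containing genes, and, of the 51 other genes, those with such a region within 10 kb and the 5 with the highest region within 100 kb. This rule does not cover Abca2, Cd2bp2, Itgad, Itgb1, Cxcl12, F5, Sf1, Lztfl1 or 1700012B09Rik, which were picked with their values known. Of the genes it covers, 1 is not reported here. The members and lists were chosen with earlier results of these data known. Alternatives were other distances, starts, overlaps, scores, windows and words and repeated sequence left out. Python 3.11.15 was used with numpy 2.4.6, pandas 2.3.3, scipy 1.17.1, numba 0.67.0 and matplotlib 3.10.9.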

Additional observations from a re-analysis of the deposited data

How the results depend on the processing

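The number of regions counted to the listed genes, 20, was 12 with a window of 50 kb, 3 with 10 kb, 5 with a score of at least 100 and 5 when only regions with the listed gene as the nearest TSS were kept, by the main TSS or by any annotated start, both chosen after seeing the data. These alternatives keep part of the 20 by construction. It was 21 with any overlap and 20 with the TSS window alone or any annotated TSS. The 5 regions with a score of at least 100 became 13 with a score of at least 60, 65% of the 20 against 76.7% of all candidate regions. They were 5 with a score of at least 200, 25% against 2.06% of all, and 5 without repeated sequence. The share with a C/EBP word within 70 bp of the centre, 15%, was 50% anywhere in the region, a wider search. It lay between 15% and 30% in the other alternatives. Among these was the palindrome alone, searched anywhere in the region and added after seeing the data. That alternative changed both the word and the window, and all 3 palindromes lay outside the 70 bp window. The number of listed genes with a region at the TSS was 2 in every alternative run. The 18 other genes with a region of score 100 or more within 100 kb became 43 with all candidate regions, 6 with a score of at least 200 and 2 within 10 kb. No paired analysis was possible because 1 library was analysed and no test was run. The depth of the library was not used here, so no statement is made on regions missed for lack of reads.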
